A study of Mus musculus with 4 samples.

Results

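The genes of cholesterol synthesis, fatty acid and glyceride synthesis and the liver X receptors (LXRs) were examined in bulk RNA-seq of mouse pancreatic islets under high-glucose (25 mM) and low-glucose (2.5 mM) conditions. The set was listed by gene symbol, with earlier results of these data known, and holds 51 of the 56748 genes in the count table. It comprised 5 genes of the SREBP control machinery, 19 of the sterol branch, 14 of the fatty acid branch, 7 of the glyceride branch, 2 of fat use and 4 of the LXR group. Under high glucose, the cholesterol exporter Abca1 and the phosphatidate phosphatases Lpin1 and Lpin2 were downregulated, and the sterol enzymes Pmvk and Tm7sf2 were upregulated. These 5 calls were made in an edgeR fit that reads equal replicate numbers as pairs. That fit called 1.85% of all tested genes as higher and 5.01% as lower. In the same fit without that block, 0 genes passed.

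The high-glucose group comprised 2 libraries of islets kept at 25 mM glucose for 2 h, and the low-glucose group comprised 2 libraries of islets kept at 2.5 mM glucose for 2 h. All islets came from 6- to 8-week-old male C57BL/6J mice by the study text. That text describes pooling of several mice per replicate in the preparation for its ribosome profiling libraries. For RNA-seq it names only the same culture conditions. Both groups had recovered overnight in culture and were then starved of glucose for 4 h ahead of the stimulus, so the low-glucose islets were not an untreated baseline. By the study text, samples of both groups also received cycloheximide, a blocker of translation, shortly before collection. That step was meant to fix ribosomes, and the text does not say separately whether the RNA-seq islets received it. Poly(A) RNA of whole islets was measured, so the values are sums over alpha, beta, delta and other cells of the islet. In such bulk RNA, fewer cells of a type and less RNA per cell cannot be told apart.

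Cholesterol and fatty acids are both built from cytosolic acetyl-CoA, which ATP citrate lyase (Acly) makes from citrate. SREBP2 (Srebf2) is best known as the activator of the sterol genes and SREBP1 (Srebf1) as that of the fatty acid genes. Both are held in the endoplasmic reticulum by Scap and the Insig proteins while sterols are plentiful. The LXRs (Nr1h3 and Nr1h2) are receptors for oxidised sterols and activate genes of cholesterol export such as Abca1 and Abcg1. In beta cells, cholesterol content and its export through these transporters are known to bear on insulin secretion.

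The promoters of the 5 called genes, and of Hmgcs1 as a well-known SREBP target, are printed to show which short regulatory motifs lay just upstream of them. Each is the 250 bases before the most upstream annotated start, 5′ to 3′ on the strand of the gene, from the RefSeq promoter table of GRCm38.p6. The regions are Abca1 chr4:53159896-53160145, minus strand, Lpin1 chr12:16610967-16611216, minus strand, Lpin2 chr17:71183282-71183531, plus strand, Pmvk chr3:89454291-89454540, plus strand, Tm7sf2 chr19:6067851-6068100, minus strand and Hmgcs1 chr13:119690101-119690350, plus strand. Capitals mark the E-box CACGTG, the CCAAT box (CCAAT, or ATTGG on the other strand) and, in Hmgcs1 alone, the sterol regulatory element TCACNCCAC.
Abca1: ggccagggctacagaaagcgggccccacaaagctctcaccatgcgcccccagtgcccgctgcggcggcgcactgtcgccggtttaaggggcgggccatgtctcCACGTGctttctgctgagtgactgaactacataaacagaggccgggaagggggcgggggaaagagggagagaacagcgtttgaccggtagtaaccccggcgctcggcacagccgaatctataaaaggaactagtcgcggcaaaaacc
Lpin1: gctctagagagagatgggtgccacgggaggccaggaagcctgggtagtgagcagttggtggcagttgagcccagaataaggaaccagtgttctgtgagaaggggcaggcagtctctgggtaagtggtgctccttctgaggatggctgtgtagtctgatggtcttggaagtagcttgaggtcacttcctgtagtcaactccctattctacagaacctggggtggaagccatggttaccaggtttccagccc
Lpin2: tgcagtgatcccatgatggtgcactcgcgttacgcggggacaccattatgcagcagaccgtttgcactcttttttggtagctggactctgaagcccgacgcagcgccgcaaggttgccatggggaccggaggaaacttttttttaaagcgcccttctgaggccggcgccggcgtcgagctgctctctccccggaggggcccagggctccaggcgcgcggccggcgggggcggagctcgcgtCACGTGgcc
Pmvk: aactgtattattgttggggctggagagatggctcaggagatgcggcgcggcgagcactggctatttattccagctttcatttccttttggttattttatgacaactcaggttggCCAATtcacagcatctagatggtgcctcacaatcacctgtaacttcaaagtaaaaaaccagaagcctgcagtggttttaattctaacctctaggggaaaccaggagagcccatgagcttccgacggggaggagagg
Tm7sf2: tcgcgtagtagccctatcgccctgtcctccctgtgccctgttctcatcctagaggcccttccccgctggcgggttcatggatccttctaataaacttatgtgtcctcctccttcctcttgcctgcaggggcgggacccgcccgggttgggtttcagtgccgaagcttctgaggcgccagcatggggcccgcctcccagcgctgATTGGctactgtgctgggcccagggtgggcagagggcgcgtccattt
Hmgcs1: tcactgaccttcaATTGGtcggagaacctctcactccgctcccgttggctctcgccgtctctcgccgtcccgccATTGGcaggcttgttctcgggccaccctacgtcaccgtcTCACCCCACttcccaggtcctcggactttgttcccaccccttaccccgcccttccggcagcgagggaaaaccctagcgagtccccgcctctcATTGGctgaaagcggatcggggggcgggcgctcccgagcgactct

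Of the 51 genes, 41 had at least 1 promoter in that table. The E-box, which is its own reverse complement, lay 141 bases before the start of Abca1 and 3 bases before that of Lpin2. The CCAAT box lay 131 bases before the start of Pmvk and 42 bases before that of Tm7sf2, and the sterol regulatory element lay 128 bases before that of Hmgcs1. Neither an E-box nor the other motifs were matched in the printed window of Lpin1. Counting every annotated start and both strands, the CCAAT box was found in 27 of the 41 genes (65.9%), against 37.5% of all 27025 genes in the table. It was matched in 14 of 15 genes of the sterol branch, 4 of 5 of SREBP control, 6 of 11 of the fatty acid branch, 2 of 5 of the glyceride branch and 0 of 3 of the LXR group. The E-box was found in 8 of the 41 genes (19.5%), against 6.86% of all genes. The sterol regulatory element was matched in Hmgcs1 alone (2.44% of the 41 genes, against 1.22% of all genes). The LXR element, 2 copies of AGGTCA in the same direction with any 4 bases between them, was matched in 0 of the 41 genes, against 0.0148% of all genes. Only the exact letters given were searched, so sites that differ from them in a base were not counted. With so low a share over all genes, 0 of 41 does not show that an LXR element is absent. Such matches describe the letters of these windows and were not tested as binding sites.

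Total counts per library were 18602778 and 19136068 under high glucose and 17279505 and 19087526 under low glucose. The 7 islet hormone markers (Ins1, Ins2, Gcg, Sst, Ppy, Iapp and Chga) summed to 117800 and 252100 CPM (read counts scaled to library size) under high glucose, against 115600 and 150600 CPM under low glucose. Of these 7, 2 passed in the edgeR fit that blocked on replicate number, Ins1 (log2FC = 0.51, adjusted p = 0.0293) and Ins2 (log2FC = 0.47, adjusted p = 0.0259), and without high-glucose replicate 2 and the block their log2FC was -0.08 and -0.22. High-glucose replicate 2 stood apart, with correlations of log2 CPM of 0.939 to 0.96 with the other libraries, against 0.967 to 0.981 among the others. The log2 ratio of high to low glucose was lower in longer genes: each doubling of exonic length lowered it by 0.29 in the replicate 2 libraries and by 0.057 in the replicate 1 libraries. A further blocked fit therefore took out this trend (the length-corrected blocked fit). CPM values are also scaled by library composition (TMM), and TPM values by exonic length as well, so that levels of different genes can be set side by side.

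Of the 51 genes, 50 had enough reads to be tested, and Thrsp, a regulator of lipogenesis, did not, with 0.455 and 0.621 CPM under high glucose and 0.447 and 0.484 CPM under low glucose. In the blocked fit without length correction, 2 of the 50 genes were upregulated (4.0%, against 1.85% of all 15665 genes tested). In the same fit 3 were downregulated (6.0%, against 5.01% of all genes), and 45 passed in neither direction. The downregulated share was close to the background of all genes. In the fit without the block, 0 of the 50 genes passed the adjusted threshold (0.0% of all genes passed), 6 had an unadjusted p under 0.05 (10.5% of all genes did), and the adjusted p ranged from 0.4003 to 0.999. By the thresholds of the study (unadjusted p under 0.05 and an absolute log2FC over 0.58), 3 genes were higher (6.0%, against 3.63% of all genes) and 3 were lower (6.0%, against 6.33%). The same 5 genes and Acat2 made up these 6. With the block, these thresholds gave 4 higher (8.0%, against 6.0%) and 5 lower (10.0%, against 11.5%), and with the length trend removed and no block, 1 higher (2.0%, against 3.59%) and 3 lower (6.0%, against 4.9%). DESeq2 without the block called Abca1 and Lpin2 as lower (1.14% of the genes to which it gave an adjusted p were lower) and 0 as higher (0.481%), the blocked DESeq2 fit called the same 2 as lower (1.6%) and 0 as higher (0.544%), and limma-voom called 0 (0.0% of all genes).

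**Figure D1:**
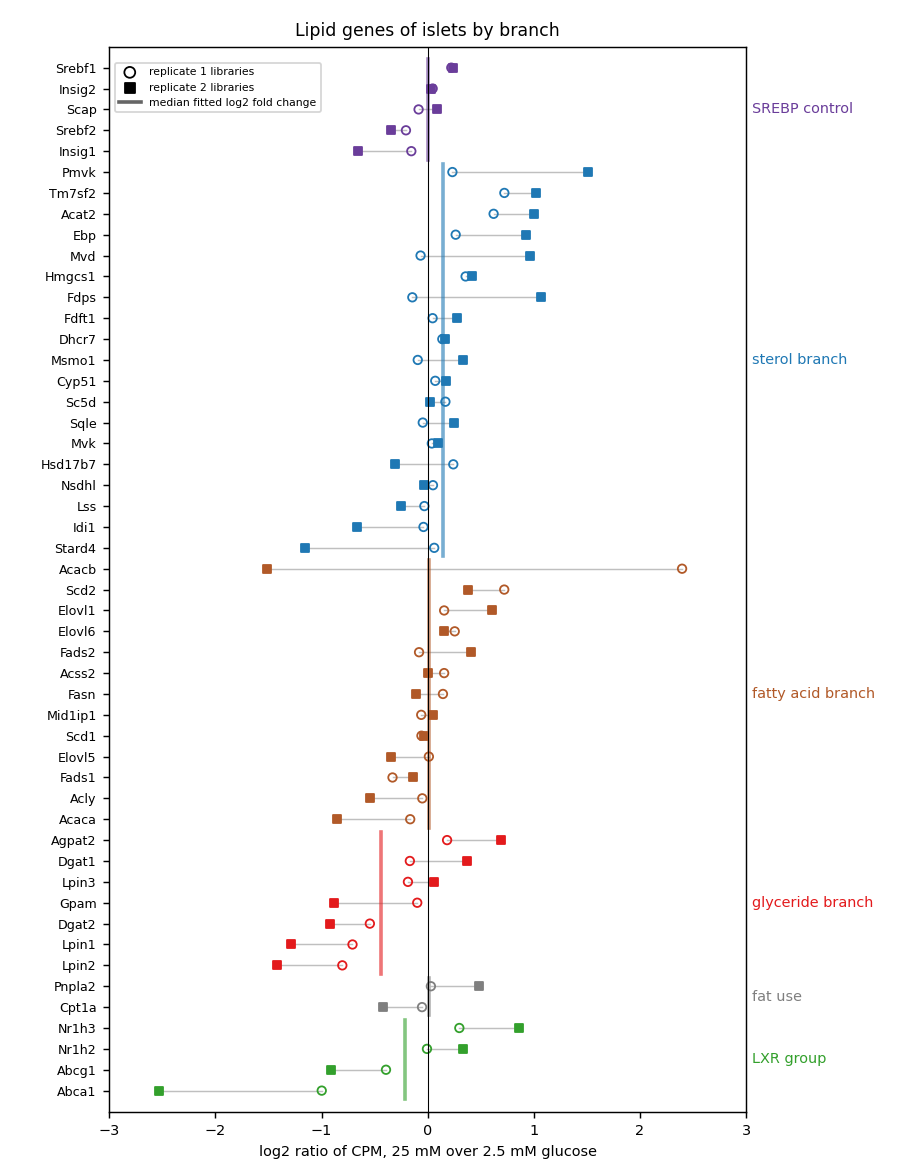
Log2 ratio of CPM, high over low glucose (25 mM over 2.5 mM), of the 50 tested genes in the replicate 1 libraries (open circles) and the replicate 2 libraries (filled squares), with the median fitted log2FC of each group as a vertical line. Most sterol genes sit close to or right of 0, while Lpin1, Lpin2, Dgat2, Abcg1 and Abca1 lie left of 0 in both sets of libraries, with Abca1 at -0.998 and -2.53.

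The genes were separated by library in about the same proportion as the transcriptome. Both high-glucose libraries lay above both low-glucose libraries for 14 of the 50 genes (28.0%, against 22.4% of all genes) and below them for 12 (24.0%, against 25.9%). In the sterol branch 7 of 19 genes were so separated upwards (36.8%) and 1 downwards (5.26%), while in the glyceride branch 1 of 7 was separated upwards (14.3%) and 4 downwards (57.1%). The median log2FC without the block was 0.14 for the sterol branch, 0.01 for the fatty acid branch, -0.44 for the glyceride branch, -0.22 for the LXR group and 0.00 for SREBP control, against -0.01 for all genes tested. These medians are descriptions, and no difference between branches was tested. Since the genes were chosen with earlier results of these data known, their shares beside those of all genes are descriptions too.

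Of the 5 SREBP control genes, 0 passed in edgeR with the block (against 1.85% higher and 5.01% lower over all genes). Without it 0 passed (0.0% of all genes did), 0 had an unadjusted p under 0.05 (10.5% did), and DESeq2 and limma-voom called 0. Srebf1, which encodes SREBP1, had 159 and 173 CPM under high glucose, against 136 and 147 CPM under low glucose (log2FC = 0.23 ± 0.27, SE, with the block). Standard errors with the block rest on a spread shared over all genes. They do not measure how closely the replicates of a single gene agreed. Srebf2, which encodes SREBP2, had 262 and 246 CPM under high glucose, against 303 and 312 CPM under low glucose (log2FC = -0.27 ± 0.26). The libraries of both genes did not overlap between glucose levels, in opposite directions, yet neither passed (edgeR adjusted p of 0.711 and 0.622). The share of Srebf1 in the summed TPM of both factors was 43.6% and 47.3% under high glucose, against 36.5% and 37.5% under low glucose.

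Insig1, an endoplasmic reticulum anchor of the SREBP-Scap complex and itself a well-known SREBP target, had 91.5 and 72.2 CPM under high glucose, against 102 and 114 CPM under low glucose (log2FC = -0.41 ± 0.28, edgeR adjusted p = 0.462 with the block). Its paralog Insig2 had 67.1 and 66.6 CPM under high glucose and 64.9 and 65.0 CPM under low glucose, the narrowest range of the group. The escort Scap had 145 and 151 CPM under high glucose and 154 and 142 CPM under low glucose, with overlapping libraries (log2FC = 0.00 ± 0.27). Srebf1 overlaps Rai1 on the opposite strand, and since strand use in counting is not given in the sources used here, reads of such a pair may not be told apart.

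In the sterol branch, 2 of 19 genes were upregulated (against 1.85% of all genes) and 0 were downregulated (against 5.01%) with the block, and 16 of 19 had a log2FC above 0 without it (84.2%, against 49.2% of all genes). Most of these differences were small. The fitted log2FC ran from -0.43 in Stard4 to 0.87 in Pmvk. The genes that lead to squalene had a median of 0.37, with 7 of 8 above 0, and those that follow squalene had a median of 0.11, with 9 of 10 above 0. In the replicate 1 libraries the median of the branch was 0.06, and in the replicate 2 libraries it was 0.25.

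Pmvk, the phosphomevalonate kinase of the mevalonate pathway, had 30.5 and 47.8 CPM under high glucose, against 26.0 and 16.8 CPM under low glucose. Both high-glucose libraries lay above both low-glucose libraries, but the log2 ratio was 0.23 in the replicate 1 libraries and 1.51 in the replicate 2 libraries. Its transcript was upregulated with the block by 1.82-fold (log2FC = 0.87 ± 0.28, edgeR adjusted p = 0.0380). In the length-corrected blocked fit it did not pass (log2FC = 0.60, adjusted p = 0.0608). Without high-glucose replicate 2 and without the block its log2FC was 0.53, against 0.87 with all libraries. The gene spans 1713 exonic bases, the shortest of the 51.

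Tm7sf2, a sterol reductase that acts after lanosterol, had 15.7 and 17.9 CPM under high glucose, against 9.49 and 8.87 CPM under low glucose. The libraries of each glucose level lay close together and did not overlap, with log2 ratios of 0.72 and 1.02. Its transcript was upregulated by 1.83-fold with the block (log2FC = 0.87 ± 0.29, edgeR adjusted p = 0.0456), and also in the length-corrected blocked fit (log2FC = 0.86, adjusted p = 0.00830). Tm7sf2 overlaps Vps51 on the same strand and shares 9.87% of its 50-base windows with it, so its count is uncertain. Vps51 itself had 44.1 and 56.6 CPM under high glucose and 48.9 and 53.4 CPM under low glucose (log2FC = -0.03 ± 0.28 with the block).

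Acat2, the cytosolic thiolase that starts the pathway, had 10.3 and 17.8 CPM under high glucose, against 6.70 and 8.87 CPM under low glucose. Its libraries did not overlap, and it met the thresholds of the study but not the adjusted one (log2FC = 0.82 ± 0.30, edgeR adjusted p = 0.0809 with the block). It shares 39.1% of its 50-base windows with its near-identical neighbour Acat3, so reads may have been divided between both genes. Hmgcs1, the HMG-CoA synthase, had 58.8 and 70.5 CPM under high glucose, against 45.9 and 52.9 CPM under low glucose, again without overlap (log2FC = 0.39 ± 0.28, adjusted p = 0.483). Ebp, the sterol isomerase, had 28.9 and 42.1 CPM under high glucose, against 24.1 and 22.2 CPM under low glucose (log2FC = 0.59 ± 0.28, adjusted p = 0.211). Neither Hmgcs1 nor Ebp passed in a fit of all 4 libraries.

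Sqle, the squalene epoxidase that forms a control point of the pathway, had the highest mean level of the branch, with 108 TPM under high glucose and 116 TPM under low glucose (means of 2). Its counts overlapped between glucose levels, with 227 and 227 CPM under high glucose and 234 and 191 CPM under low glucose (log2FC = 0.10 ± 0.27 with the block). Stard4, a cytosolic sterol carrier, had 29.6 and 13.1 CPM under high glucose, against 28.4 and 29.1 CPM under low glucose. High-glucose replicate 2 alone was low, and Stard4 did not pass with the block (log2FC = -0.54 ± 0.28, edgeR adjusted p = 0.290). Fdps, the farnesyl diphosphate synthase, held only 79 reads over all 4 libraries (1.16 and 1.24 CPM under high glucose, 1.28 and 0.591 CPM under low glucose). It shares 26.2% of its 50-base windows with 8 other genes, of which Gm43738 overlaps it on the same strand, so no level of Fdps is read from this count. Idi1 is uncertain for the same reason, with 17.7% of its windows shared, mostly with Gm13502.

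In the fatty acid branch, 0 of the 13 tested genes passed in edgeR with the block (against 1.85% higher and 5.01% lower over all genes). An unadjusted p under 0.05 without it was found in 0 (against 10.5% of all genes), and DESeq2 and limma-voom called 0. Without the block 7 had a log2FC above 0 against 6 below 0. Acly was the most abundant of all 51 genes, with 1015 TPM under high glucose and 1370 TPM under low glucose (means of 2). It had 2264 and 1690 CPM under high glucose, against 2345 and 2466 CPM under low glucose, so that the replicate 2 libraries carried most of the difference (log2FC = -0.30 ± 0.22, edgeR adjusted p = 0.486 with the block). Fasn, the fatty acid synthase, had 212 and 218 CPM under high glucose and 192 and 236 CPM under low glucose, with overlapping libraries (log2FC = 0.02 ± 0.27).

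The acetyl-CoA carboxylases, which make malonyl-CoA, were present at unequal levels. Acaca had 50.6 and 32.3 CPM under high glucose, against 56.7 and 58.4 CPM under low glucose (log2FC = -0.51 ± 0.28, edgeR adjusted p = 0.320 with the block), and its log2FC was 0.02 in the length-corrected blocked fit. It is the longest of the 51 genes, with 17074 exonic bases, and shares 30.4% of its windows with other genes, mainly Gm5182. Acacb had 3.23 and 0.451 CPM under high glucose and 0.614 and 1.29 CPM under low glucose, which gave the largest log2FC of the branch (0.95 ± 0.91 without the block). Its 2 sets of libraries pointed in opposite directions. Acaca took 89.8% and 97.6% of the summed TPM of the pair under high glucose, against 98.1% and 96.2% under low glucose.

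The stearoyl-CoA desaturases, which introduce the double bond of oleate, behaved differently from each other. Scd2 had 347 and 191 CPM under high glucose, against 211 and 147 CPM under low glucose, higher in each set of libraries but overlapping between groups (log2FC = 0.55 ± 0.27, edgeR adjusted p = 0.233 with the block). In the length-corrected blocked fit it was called as upregulated (log2FC = 0.63, adjusted p = 0.0148). Without the block, leaving out high-glucose replicate 1 gave a log2FC of 0.10 and leaving out high-glucose replicate 2 gave 0.97, against 0.59 with all libraries. The length-corrected blocked fit called 2 of 50 genes as higher (4.0%, against 3.25% of all genes) and 4 as lower (8.0%, against 5.87%). Scd1 had 17.5 and 4.29 CPM under high glucose and 18.2 and 4.41 CPM under low glucose. It differed by replicate number and hardly by glucose (log2FC = -0.05 ± 0.30). Scd2 took 94.7% and 97.6% of the summed TPM of both genes under high glucose, against 91.2% and 96.8% under low glucose. Scd1 and Scd2 share 4.56% and 3.97% of their windows with other genes of the family and a few others.

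Among the elongases, Elovl1 had 46.1 and 59.5 CPM under high glucose, against 41.4 and 39.0 CPM under low glucose (log2FC = 0.38 ± 0.28 with the block), and Elovl6 had 47.4 and 39.8 CPM under high glucose, against 39.8 and 35.7 CPM under low glucose (log2FC = 0.21 ± 0.28). The libraries of both genes were separated, although neither passed (edgeR adjusted p of 0.487 and 0.749). Elovl1 overlaps Cdc20 on the opposite strand (3433 and 384 reads over all libraries), with the same limit as Srebf1. Elovl5 had 175 and 146 CPM under high glucose and 173 and 186 CPM under low glucose, with overlap. The desaturases of polyunsaturated fatty acids overlapped as well, with 62.5 and 56.3 CPM under high glucose and 78.6 and 61.8 CPM under low glucose for Fads1, and 37.6 and 29.7 CPM under high glucose and 39.8 and 22.3 CPM under low glucose for Fads2.

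In the glyceride branch, 2 of 7 genes were downregulated (against 5.01% of all genes) and 0 were upregulated (against 1.85%) with the block. Lipins turn phosphatidate into diacylglycerol, the step before triglyceride and phospholipid synthesis. Lpin1 had 35.6 and 25.7 CPM under high glucose, against 58.2 and 62.8 CPM under low glucose. The groups were well separated, and the transcript was downregulated by 2.00-fold (log2FC = -0.998 ± 0.28, edgeR adjusted p = 0.0116 with the block). Lpin2 had 28.2 and 22.2 CPM under high glucose, against 49.3 and 59.3 CPM under low glucose. It was likewise separated and downregulated by 2.16-fold (log2FC = -1.11 ± 0.28, adjusted p = 0.00368). Both genes were also called in the length-corrected blocked fit, at -0.67 (adjusted p = 0.0195) for Lpin1 and -0.70 (adjusted p = 0.0150) for Lpin2.

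Lpin3 had 12.1 and 10.05 CPM under high glucose and 13.8 and 9.62 CPM under low glucose, and its libraries overlapped (log2FC = -0.06 ± 0.30, edgeR adjusted p = 0.941 with the block). The share of Lpin3 in the summed TPM of the 3 lipins was 35.8% and 38.2% under high glucose, against 27.4% and 18.9% under low glucose. Whether the log2FC of Lpin3 differs from those of Lpin1 and Lpin2 was not tested. None of the 3 lipins shared a 50-base window with another gene. Lpin1 and Lpin2 are also long, with 9930 and 12233 exonic bases, against 3694 in Lpin3.

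Dgat2, which adds the last acyl chain of triglyceride, had 18.3 and 10.7 CPM under high glucose, against 26.7 and 20.2 CPM under low glucose. Its libraries did not overlap, and among the fits of all 4 libraries it passed only in the length-corrected blocked fit (log2FC = -0.83, edgeR adjusted p = 0.00642), against -0.73 ± 0.28 (adjusted p = 0.102) with the block alone. Without the block, its log2FC was -0.34 without high-glucose replicate 2 and -1.13 without high-glucose replicate 1, against -0.69 with all libraries. Dgat1, the other enzyme of that step, had 18.5 and 21.7 CPM under high glucose and 20.8 and 16.8 CPM under low glucose, with overlap. Dgat2 took 49.5% and 32.8% of their summed TPM under high glucose, against 56.0% and 54.4% under low glucose. Gpam, the mitochondrial acyltransferase that starts glyceride synthesis, had 33.6 and 20.2 CPM under high glucose, against 36.0 and 37.3 CPM under low glucose (log2FC = -0.49 ± 0.28, adjusted p = 0.344). Agpat2, which makes phosphatidate, was the most abundant of the branch and pointed the other way, with 23.6 and 25.6 CPM under high glucose, against 20.8 and 15.9 CPM under low glucose (log2FC = 0.43 ± 0.28, edgeR adjusted p = 0.420). It overlaps Egfl7 on the opposite strand (1589 reads in Agpat2 and 639 in Egfl7 over all libraries), so its count has the same limit as that of Srebf1.

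The 8 adipocyte markers, measured because fat cells are rich in Dgat2, Lpin1 and Scd1, summed to 1.26 and 5.64 CPM under high glucose, against 1.51 and 2.31 CPM under low glucose. Retn was at 0 in every library, and Adipoq, Plin1 and Lep each had reads in a single library, at no more than 0.108 CPM. Fabp4 was the highest in high-glucose replicate 2, with 0.606 and 4.57 CPM under high glucose, against 0.670 and 1.34 CPM (log2FC = 1.02 ± 0.54 with the block). Cidea had 0.455 and 0.677 CPM under high glucose, against 0.558 and 0.752 CPM. The part of fat cells in the levels of these genes was not tested. Of the 8, 2 had enough reads to be tested, and 0 passed in edgeR with the block.

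**Figure D2:**
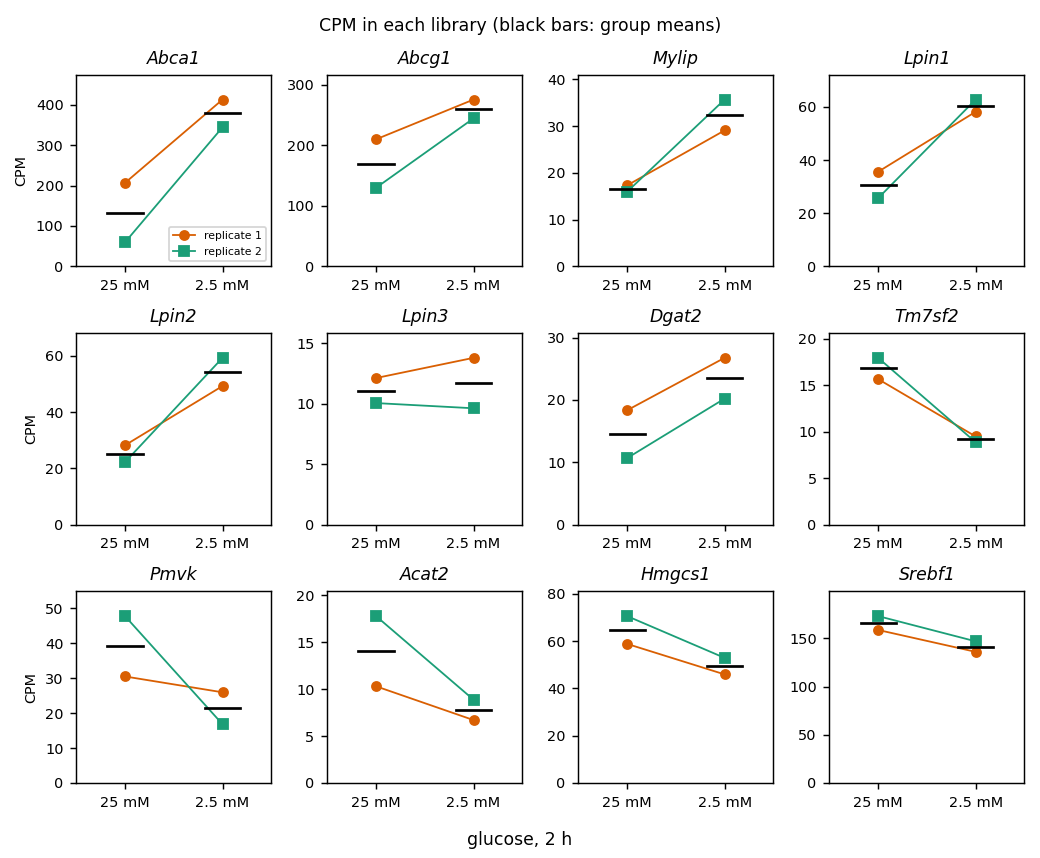
CPM of 12 genes in each library, with high glucose (25 mM) left and low glucose (2.5 mM) right. Lines join libraries of equal replicate number (circles, replicate 1, and squares, replicate 2), and black bars are group means of 2. Abca1, Mylip, Lpin1, Lpin2 and Dgat2 lie lower and Tm7sf2, Pmvk and Acat2 higher in both high-glucose libraries, while Lpin3 overlaps.

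Of the 2 genes of fat use, 0 passed in edgeR with the block (against 1.85% higher and 5.01% lower over all genes). Without the block 0 had an unadjusted p under 0.05 (against 10.5% of all genes), and DESeq2 and limma-voom called 0. Pnpla2, the triglyceride lipase ATGL, had 63.7 and 79.1 CPM under high glucose, against 62.4 and 56.6 CPM under low glucose (log2FC = 0.26 ± 0.28 with the block). Cpt1a, which carries fatty acids into mitochondria and is inhibited by malonyl-CoA, had 79.8 and 66.5 CPM under high glucose, against 82.8 and 88.7 CPM under low glucose (log2FC = -0.23 ± 0.28). Their libraries were separated in opposite directions, and neither passed (edgeR adjusted p of 0.680 and 0.711).

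In the LXR group, 1 of 4 genes was downregulated (against 5.01% of all genes) and 0 were upregulated (against 1.85%) with the block, and the fitted log2FC was above 0 for both receptors and below 0 for both transporters. Abca1, which exports cholesterol and phospholipid to apolipoproteins, had 207 and 59.7 CPM under high glucose, against 413 and 344 CPM under low glucose. Both high-glucose libraries lay below both low-glucose libraries, and they also lay far from each other, with high-glucose replicate 2 the lowest. The transcript was downregulated by 3.39-fold with the block (log2FC = -1.76 ± 0.28, edgeR adjusted p = 1.25e-07), the largest change among the 50 genes in that fit. That error and p-value rest on the shared spread, while the log2 ratios were -0.998 in the replicate 1 libraries and -2.53 in the replicate 2 libraries. In edgeR without the block the log2FC was -1.51 ± 0.52 (adjusted p = 0.4505). The log2FC was -1.41 (adjusted p = 6.88e-11) in the length-corrected blocked fit, and DESeq2 without the block also called it (adjusted p = 0.0288). Without high-glucose replicate 2 and without the block it was -0.86 (adjusted p = 0.357), and without high-glucose replicate 1 it was -2.66 (adjusted p = 0.00143), against -1.51 with all libraries. Abca1 shares no 50-base window with another gene.

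Abcg1, which exports cholesterol to lipoprotein particles, had 210 and 130 CPM under high glucose, against 275 and 244 CPM under low glucose. Its libraries did not overlap, and it did not pass (log2FC = -0.65 ± 0.27, edgeR adjusted p = 0.134 with the block). Nr1h3, which encodes LXRα, had 7.07 and 9.65 CPM under high glucose, against 5.75 and 5.32 CPM under low glucose (log2FC = 0.58 ± 0.33, adjusted p = 0.340). Nr1h2, which encodes LXRβ, had 54.9 and 74.5 CPM under high glucose and 55.1 and 59.0 CPM under low glucose (log2FC = 0.17 ± 0.28, adjusted p = 0.810). Nr1h2 held 85.3% and 85.3% of the summed TPM of both receptors under high glucose, against 87.8% and 89.3% under low glucose. Since macrophages express Abca1 and Abcg1 strongly, 8 of their markers were summed. The sums were 84.3 and 110 CPM under high glucose, against 86.3 and 90.02 CPM under low glucose, with 0 of 8 passing with the block. C1qa alone held 50.7 and 49.3 CPM of these under high glucose, against 47.1 and 42.6 CPM. The other markers did not all move alike. Mrc1 had 0.909 and 0.169 CPM under high glucose, against 1.79 and 0.591 CPM, while Cd68 had 8.13 and 17.7 CPM, against 8.04 and 12.2 CPM. The part of macrophages in the level of Abca1 was not tested.

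**Figure D3:**
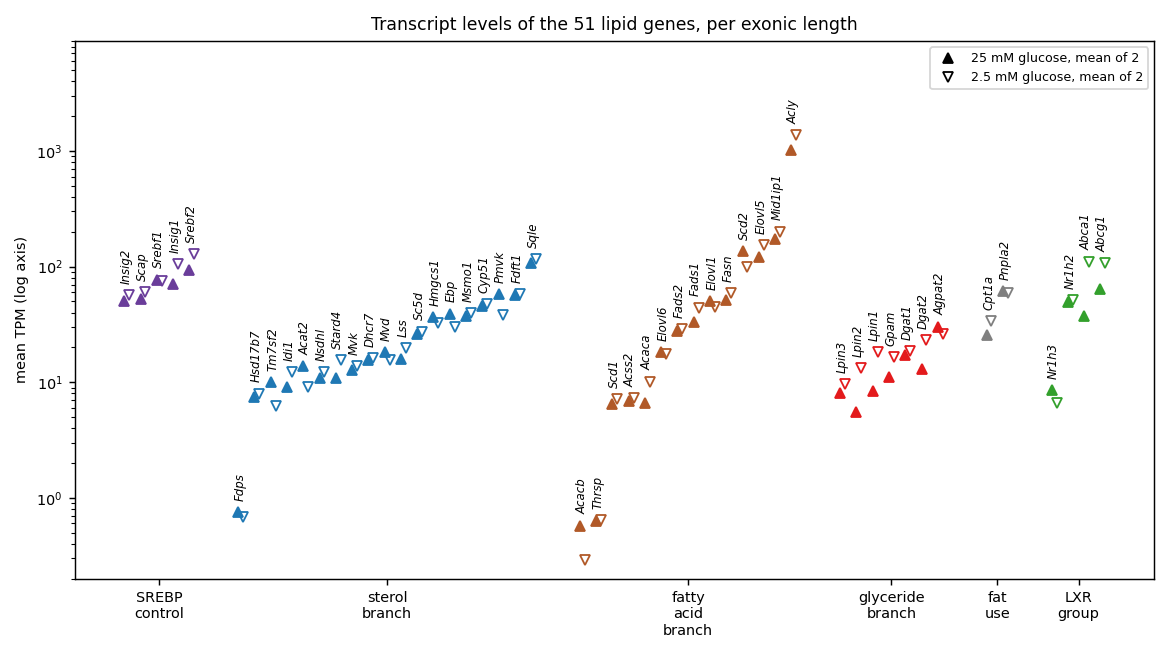
Mean TPM of the 51 genes on a log axis under high glucose (25 mM, filled triangles) and low glucose (2.5 mM, open triangles), each a mean of 2 libraries, ordered by level within each branch. Acly, at 1015 TPM under high glucose and 1370 TPM under low glucose, lies far above all others, and Acacb and Thrsp lie below 1 TPM. Fdps is drawn although its count is uncertain.

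By length-scaled level, the SREBP control genes (median 76.4 TPM over all libraries) and the LXR group (62.1 TPM) stood above the fatty acid branch (38.5 TPM), the sterol branch (16.8 TPM) and the glyceride branch (13.9 TPM), against 12.9 TPM over all tested genes. Within the fatty acid branch the levels ranged from 0.433 TPM for Acacb to 1192 TPM for Acly. In the glyceride branch they ranged from 8.84 TPM for Lpin3 to 28.2 TPM for Agpat2. The LXR group ranged from 7.59 TPM for Nr1h3 to 85.8 TPM for Abcg1.

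The branches also differ in gene length, which moved with the log2 ratio across all genes. The median exonic length was 4403 bases in the sterol branch, 5279 in the fatty acid branch and 3694 in the glyceride branch, against 4129 over all tested genes. In the length-corrected blocked fit, the median log2FC was 0.20 for the sterol branch, 0.07 for the fatty acid branch and -0.33 for the glyceride branch, against 0.12, 0.02 and -0.49 with the block alone. The order of the 3 branches was the same in both fits. Without high-glucose replicate 2 and without the block, the glyceride median was -0.11, and without high-glucose replicate 1 it was -0.86, against -0.44 with all libraries.

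**Figure D4:**
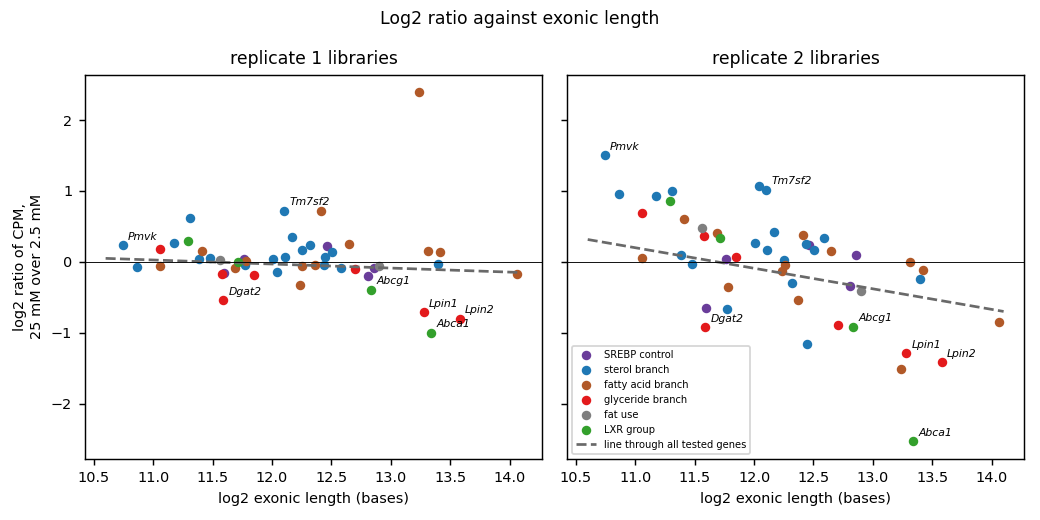
Log2 ratio of CPM, high over low glucose (25 mM over 2.5 mM), against log2 exonic length for the 50 tested genes in the replicate 1 libraries (left) and the replicate 2 libraries (right), with a dashed line through all 15665 tested genes. The line falls by 0.057 per doubling of length on the left and 0.29 on the right, and Abca1, Lpin1, Lpin2 and Dgat2 lie below it in both panels.

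Of 80 other genes listed for the same pathways, 79 were tested. With the block, 3 were downregulated (3.797%, against 5.01% of all genes) and 0 were upregulated (0.0%, against 1.85%), which is below the background in both directions. By the thresholds of the study without the block, 4 were lower (5.06%, against 6.33%) and 2 were higher (2.53%, against 3.63%). Stard5, a sterol-binding protein, had 47.4 and 29.5 CPM under high glucose, against 133 and 102 CPM under low glucose (log2FC = -1.64 ± 0.29, edgeR adjusted p = 3.63e-06 with the block). Acsl3, an acyl-CoA synthetase of lipid droplet formation, had 12.1 and 9.43 CPM under high glucose, against 26.9 and 25.0 CPM under low glucose (log2FC = -1.28 ± 0.29, adjusted p = 6.80e-04). The study text also names Stard5 from the same islets, so its place in the list is not independent of these data. The libraries of both genes were separated, and DESeq2 without the block also called them (adjusted p of 1.17e-04 and 0.0150).

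Mylip, the LXR target that marks lipoprotein receptors for degradation, had 17.3 and 15.97 CPM under high glucose, against 29.1 and 35.7 CPM under low glucose, and was downregulated (log2FC = -0.95 ± 0.28, edgeR adjusted p = 0.0173 with the block). It was the only 1 of the 9 other LXR genes to pass. The others included Lpcat3, a phospholipid acyltransferase, with 90.4 and 91.8 CPM under high glucose, against 84.4 and 74.5 CPM under low glucose. Smpdl3a had 37.6 and 30.2 CPM under high glucose, against 46.3 and 38.6 CPM under low glucose. Their log2FC values with the block were 0.20 and -0.33 (adjusted p of 0.761 and 0.567). The rest of the list was Pltp, Lpl, Arl4c, Abcg4, Rxra and Rxrb. Over the 9 genes the log2FC without the block ran from -0.96 to 1.2, with 2 above 0.

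The remaining 3 genes met only the thresholds of the study. Lbr, a sterol reductase with the same activity as Tm7sf2, had 34.6 and 24.04 CPM under high glucose, against 43.9 and 48.5 CPM under low glucose (log2FC = -0.68 ± 0.28, edgeR adjusted p = 0.134 with the block), the opposite direction to Tm7sf2. Mcat, of mitochondrial fatty acid synthesis, had 23.8 and 26.3 CPM under high glucose, against 18.7 and 14.5 CPM under low glucose (log2FC = 0.61 ± 0.28, adjusted p = 0.203). Acadm, the medium-chain acyl-CoA dehydrogenase, had 19.9 and 29.5 CPM under high glucose, against 13.4 and 15.8 CPM under low glucose (log2FC = 0.74 ± 0.28, adjusted p = 0.0952). In the length-corrected blocked fit, Lbr (adjusted p = 0.0271) and Acadm (0.0321) passed.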

How the data were processed

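RNA was measured in 4 poly(A) libraries of mouse islets, 2 per glucose level. By the study's methods and the submitters' processing notes, the authors used fastp for read cleaning, HISAT2 2.2.1 for alignment and featureCounts for gene-level counting, and the deposited values are raw counts. The submitters' processing notes name mm10, but a start identical to that in GENCODE vM21 was found for only 1448 of 52036 shared nuclear genes, so no position of the table is printed. Strandedness and the handling of multi-mapping reads are not given in the sources used here. Total counts per library ran from 17279505 to 19136068, and with 2 libraries per group the precision is limited mainly by the spread between them. The labels call the libraries biological repeats.

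The two-sided quasi-likelihood test of edgeR 4.0.16 (R 4.3.3) was applied to the counts of 15665 genes kept by filterByExpr, with TMM scaling, with Benjamini-Hochberg adjustment over all of them and a threshold of 0.05. The standard error is the log2FC divided by the square root of F. The replicate number was also fitted as a block. By the study text, islets of every mouse went to both conditions, in a preparation described for its ribosome profiling libraries. For RNA-seq that text names only the same culture conditions. Deviations from the group mean correlated between libraries of equal number (r = 0.409 over 15665 genes, which are not independent replicates). The labels do not state the pairing, so it is an inference. The blocked fit has 1 residual degree of freedom and took its spread from the trend over all genes, so it can call a gene with unlike pairs. The length trend was removed by loess (span 0.5) through offsets. DESeq2 1.42.0 and limma-voom (limma 3.58.1), other scalings, no filter and leaving out each library were alternatives.

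The members and all lists were chosen with earlier results of these data known. Named were the genes past a threshold, the largest rise and fall and the most abundant gene of each branch, the control genes and the paralog families. Hmgcs1, Ebp, Fdps, Idi1, Fasn, Gpam, Thrsp, Lpcat3, Smpdl3a and Agpat5 were named outside this rule, after their values were seen. Uncertain counts were judged by 50-base windows shared between GENCODE vM21 transcripts of different genes, over all transcripts of a gene.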

Additional observations from a re-analysis of the deposited data

How the results depend on the processing

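The number of all genes past the adjusted threshold was 0 in the edgeR fit without the block and in limma-voom, 2 with the length trend removed, 185 in DESeq2, 256 in DESeq2 with the replicate block, 597 with no filter on low counts, 1075 with the replicate block, and 1429 in the length-corrected blocked fit. Leaving out 1 library gave 5 to 3253. By the thresholds of the study it was 1559, against 2469 with no filter, 2739 with the block, and 726 to 4399 with 1 library left out. For the 50 genes examined, those past the adjusted threshold numbered 0 higher and 0 lower without the block, 2 higher and 3 lower with the replicate block, 2 and 4 in the length-corrected blocked fit, 0 and 3 with no filter, and 0 and 2 in DESeq2 with and without the block. Leaving out 1 library gave 0 to 6 higher and 0 to 9 lower. All of these 15 calls came without high-glucose replicate 1, when high-glucose replicate 2 alone stands for its group and is assumed to vary like the others. By the thresholds of the study the 3 higher genes became 1 with the length trend removed and 1 to 6 with 1 library left out, and the 3 lower became 5 with the block, 5 with no filter, 5 in DESeq2 with the replicate block, and 1 to 9 with 1 library left out. The median log2FC of the fatty acid branch was 0.074 in the length-corrected fit with the replicate block, and -0.061 to 0.18 with 1 library left out. With 1 library left out, that of the sterol branch was 0.11 to 0.29, that of the LXR group -0.31 to -0.17 and that of the glyceride branch -0.86 to -0.11. The cause of these moves was not tested. Of the 50 genes, 1 to 10 changed sign in a given setting against the edgeR fit without the block, and 0 of these changes touched a gene that passed in that setting. As that edgeR fit called 0 genes, no sign change could touch a call made there. Stard4 and Acaca, which passed without high-glucose replicate 1, changed sign elsewhere, to 0.053 without high-glucose replicate 2 for Stard4 and to 0.024 with the length trend removed for Acaca. The block gave 5 calls over the fit without it, and 6 over the length-corrected fit without it (0 calls), among them Scd2 and Dgat2. Abca1, Lpin1 and Lpin2 were lower in all 13 settings, called in 6, 4 and 6 of them.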

Other observations

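Scd1 stood out by replicate number rather than by glucose. Its CPM in replicate 1 was 4.08 times that in replicate 2 under high glucose and 4.13 times under low glucose. It was the only 1 of the 51 genes with a difference over 2-fold in the same direction at both glucose levels, as 774 of 15665 genes had (4.94%). The 6 fibroblast and stellate markers moved the same way, with a sum of 479 and 118 CPM under high glucose and 515 and 89.5 CPM under low glucose, and the 5 endothelial markers the opposite way, with 49.2 and 152 CPM under high glucose and 45.3 and 154 CPM under low glucose. In other marker lists, Muc1 was also higher in replicate 1, by 2.29 times under high glucose and 3.30 times under low glucose. Mrc1 and Cidec, which held few reads, were over 2-fold higher there too, and Fabp4 was over 2-fold lower. The part of other cell types in the level of Scd1 was not tested.

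Among the 13 listed genes of fatty acid oxidation, 0 passed in edgeR with the block (against 1.85% higher and 5.01% lower over all genes). An unadjusted p under 0.05 without it was found in 1 (against 10.5% of all genes). DESeq2 and limma-voom called 0, and the median log2FC without the block was 0.06. The 18 tested genes of the other glyceride list gave a median of -0.02, against -0.44 in the 7 genes of the glyceride branch. Of the 18, 9 lay above and 9 below 0. In edgeR with the block 0 of them passed (against 1.85% higher and 5.01% lower over all genes). Without it 0 had an unadjusted p under 0.05 (against 10.5%), and DESeq2 and limma-voom called 0. In the length-corrected blocked fit the median of that list was 0.12 and 1 gene was called, the acyltransferase Agpat5 (log2FC = 0.63, edgeR adjusted p = 0.0360). The 9 other LXR genes gave a median of -0.29, with 7 of 9 below 0.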
